A study of Mus musculus with 6 samples.

Results

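The globin genes and the switching factor Bcl11a were followed in LSK cells, the bone marrow fraction without lineage markers and with Sca-1 and c-Kit on the surface that holds hematopoietic stem cells and multipotent progenitors. The 8 genes were taken by symbol out of 55573 in the count table: the adult beta-globins Hbb-bt and Hbb-bs, the embryonic beta-type globins Hbb-y and Hbb-bh1, the adult alpha-globins Hba-a1 and Hba-a2, the embryonic alpha-type globin Hba-x, and Bcl11a. They were selected on their counts in the comparison of genotypes, where the adult beta-globins had been seen to differ, so their values in it are a description and carry no test. Bulk RNA sequencing was done on 3 wild-type libraries (Etv6+/+) and 3 heterozygous libraries with 1 R355X allele (the gene encodes an ETS-family repressor). All came from C57BL/6J bone marrow at 3 months of age, and no treatment is labelled. The genotype field writes the mutant as Etv6+/-, and the labels do not say whether replicates are separate animals or pools, so the spread between them may be technical.

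Hemoglobin is built from alpha-type and beta-type chains, whose genes lie in separate clusters and are transcribed in the erythroid lineage from nearby promoters and distant enhancers. In the mouse, Hbb-y, Hbb-bh1 and Hba-x serve the primitive red cells of the embryo, and Hbb-bs, Hbb-bt, Hba-a1 and Hba-a2 serve fetal liver and adult marrow. Bcl11a is a zinc finger repressor that keeps the embryonic beta-type genes silent in definitive red cells and is also needed for B lymphocyte development and for stem cell function.

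Libraries held 45194733 to 92151105 expected counts, with mutant replicate 1 the deepest. Kit ran from 351 to 451 CPM (counts scaled to a common library size by TMM) and Ly6a, which encodes Sca-1, from 71.7 to 93.5 CPM. Etv6 measured 454, 419 and 400 CPM in wild-type replicates 1, 2 and 3 and 305, 341 and 386 CPM in mutant replicates 1, 2 and 3. A pair of libraries stood apart in marker genes. Wild-type replicate 3 had the highest summed level of the mature erythroid list (1185 CPM against 766 to 974 in the other 5), and mutant replicate 1 had the highest summed levels of the macrophage list (257 CPM against 158 to 198) and the B-lineage list (1066 CPM against 585 to 773). Values that rest on these libraries are also given without them.

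The adult genes of each pair are nearly identical, which sets how well their reads can be told apart. The coding sequences of Hbb-bs and Hbb-bt, from GENCODE M21 transcripts, differ at 1 of 441 bases, the substitution C417T counted from the first base of the start codon with the Hbb-bs base first. The last 60 coding bases before the stop codon are shown with that base in capitals.
Hbb-bs: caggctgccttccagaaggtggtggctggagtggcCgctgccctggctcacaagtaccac
Hbb-bt: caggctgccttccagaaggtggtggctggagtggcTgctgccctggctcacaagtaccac
Of all 50-base stretches of the Hbb-bs transcript 65.8% also occur in Hbb-bt, and 58.3% the other way. Hba-a1 and Hba-a2 also differ at 1 coding base of 426 (C381T, Hba-a1 first), with 67.5% and 86.9% of 50-base stretches shared. The adult genes of both pairs nevertheless had whole-number expected counts in every library, whereas 19.3% of the detected genes had a fractional value in at least 1 library. The embryonic globins also had whole numbers, but at 10 counts or fewer per library, so they say little about shared reads. How reads that fit both genes of a pair were treated is not given in the sources used here, so sums over each pair are given beside the single genes. A sum does not depend on how shared reads were divided within a pair, but it lacks them if they were left out. In that case the countable stretch of each gene would be shorter than its transcript, by unequal amounts, and levels, shares and ratios that set these genes beside each other would shift in all libraries.

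The promoters differ more than the coding sequences. Over 250 bases before and 50 after the annotated start (RefSeq, GRCm38.p6, all shown 5′ to 3′ on the strand of the gene), Hbb-bt and Hbb-bs were 70.6% identical, and Hba-a1 and Hba-a2 98.0%. Promoters are shown for the adult beta pair, which was higher in the mutant, for Hba-a1, which was not, and for the embryonic gene Hbb-y. Capitals mark exact matches on either strand to the erythroid promoter elements CACCC and CCAAT, the TATA-type boxes TATAAA and ATAAAA, the GATA-factor motif AGATAA and the Bcl11a motif TGACCA. Variants of these strings, such as tgataa in Hba-a1 and atataa in Hba-a1 and Hbb-bs, stay in lower case, so an unmarked promoter may still hold such an element.
Hbb-bt (chr7:103813874-103814173, minus strand): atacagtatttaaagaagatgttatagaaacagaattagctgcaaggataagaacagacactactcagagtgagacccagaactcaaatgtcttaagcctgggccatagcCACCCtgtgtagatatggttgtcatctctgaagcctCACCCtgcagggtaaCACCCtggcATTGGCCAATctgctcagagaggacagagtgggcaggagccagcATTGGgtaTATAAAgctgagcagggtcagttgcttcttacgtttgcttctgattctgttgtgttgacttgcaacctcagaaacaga
Hbb-bs (chr7:103827879-103828178, minus strand): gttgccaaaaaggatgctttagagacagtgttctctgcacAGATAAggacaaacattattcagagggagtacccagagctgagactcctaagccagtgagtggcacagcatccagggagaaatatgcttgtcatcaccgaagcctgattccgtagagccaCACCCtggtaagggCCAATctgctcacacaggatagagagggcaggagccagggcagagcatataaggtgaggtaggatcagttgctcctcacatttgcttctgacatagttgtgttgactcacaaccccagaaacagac
Hba-a1 (chr11:32283422-32283721, plus strand): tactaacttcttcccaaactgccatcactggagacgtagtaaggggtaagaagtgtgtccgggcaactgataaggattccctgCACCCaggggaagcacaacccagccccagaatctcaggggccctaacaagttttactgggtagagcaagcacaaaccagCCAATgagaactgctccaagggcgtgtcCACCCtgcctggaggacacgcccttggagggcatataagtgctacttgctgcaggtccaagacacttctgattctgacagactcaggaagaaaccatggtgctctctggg
Hbb-y (chr7:103853158-103853457, minus strand): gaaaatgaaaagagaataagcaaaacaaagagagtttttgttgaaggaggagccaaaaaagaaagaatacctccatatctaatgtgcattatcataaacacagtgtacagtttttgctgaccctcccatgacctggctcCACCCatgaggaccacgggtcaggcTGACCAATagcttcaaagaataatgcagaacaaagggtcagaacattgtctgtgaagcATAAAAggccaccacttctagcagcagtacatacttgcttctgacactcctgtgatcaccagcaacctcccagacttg
On the strand of the gene, CCAAT began at position -75 from the start in Hbb-bt, -76 in Hbb-bs, -88 in Hba-a1 and -83 in Hbb-y. CACCC began at -89 in Hbb-bt and -90 in Hbb-bs, and Hbb-bt held 2 further copies, at -104 and -140, where Hbb-bs held none. TGACCA was present in Hbb-y at -86, where it overlaps CCAAT, and in Hba-x at -40, and in none of the 4 adult globin promoters. The sequence CCGGAA, a longer form of the ETS-factor site, was in none of the 7 promoters found for these genes. Among 32851 promoters of the same length, CACCC was found on either strand in 57.5%, CCAAT in 37.4%, TGACCA in 13.6% and CCGGAA in 14.9%. These are matches of letters, not measured binding.

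The adult beta-globins were higher in every mutant library than in every wild-type library, an order seen in 8.44% of all tested genes (the opposite order in 7.86%). Hbb-bt (ENSMUSG00000073940.3, chromosome 7 from 103812524 to 103813996 in mm10, minus strand) measured 18.9, 15.0 and 20.4 CPM in wild-type replicates 1, 2 and 3 and 99.5, 81.6 and 54.5 CPM in mutant replicates 1, 2 and 3. Its groups did not overlap, and mutant replicate 3 was the lowest of the mutant libraries. Means were 18.1 ± 2.75 and 78.5 ± 22.7 CPM (SD, n = 3 each), a 4.34-fold difference (log2 2.12, SE 0.19 from the edgeR fit, approximate 95% interval of the fold 3.34 to 5.63).

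Hbb-bs (ENSMUSG00000052305.6, chromosome 7 from 103826534 to 103828096, minus strand) stood at 33.3, 24.3 and 31.0 CPM across wild-type replicates and at 90.8, 72.4 and 47.9 CPM across mutant replicates, in the order 1, 2 and 3. Again no mutant library fell into the wild-type range, and mutant replicate 3 lay closest to it. The fold was 2.39 (log2 1.25, SE 0.20, interval 1.83 to 3.11). Summed to 1 feature, the pair came to 52.2, 39.4 and 51.4 CPM for wild type and to 190, 154 and 102 CPM for the mutant. The sum differed 3.13-fold (log2 1.65, SE 0.19, interval 2.42 to 4.05). Its log2 difference ran from 1.43 without mutant replicate 1 to 1.85 without mutant replicate 3. In bulk samples more cells of a type and more RNA per cell cannot be told apart.

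**Figure D1:**
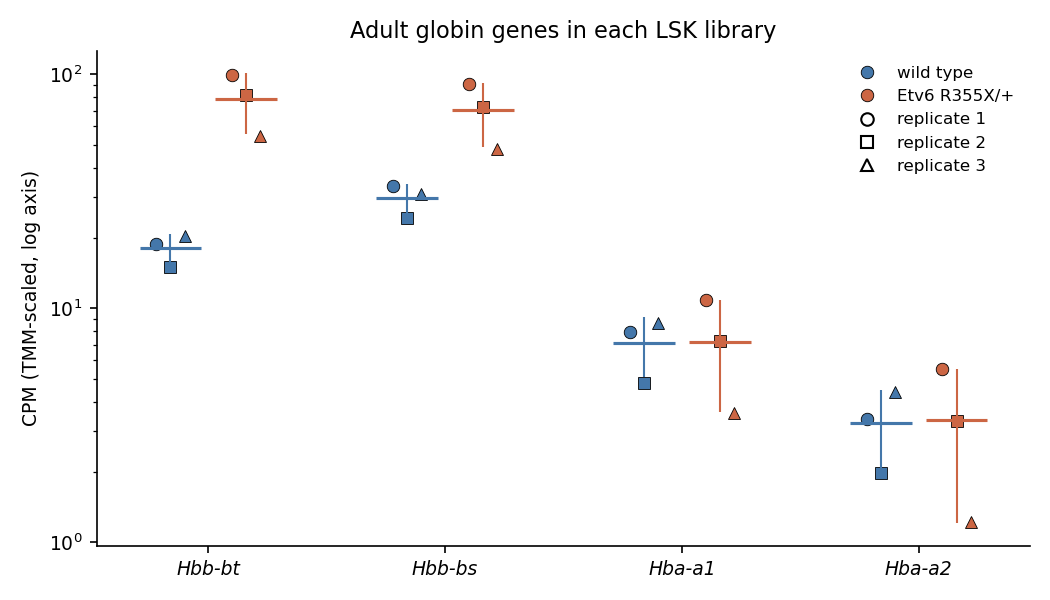
CPM on a log axis for the 4 adult globin genes, with 1 point per library (circle, square and triangle for replicates 1, 2 and 3), and the mean with its SD as bars. Hbb-bt and Hbb-bs separate the genotypes, with all mutant Hbb-bt values between 54.5 and 99.5 CPM above the highest wild-type value of 20.4, while Hba-a1 and Hba-a2 overlap.

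The adult alpha-globins overlapped between the genotypes. Hba-a1 (ENSMUSG00000069919.7, chromosome 11 from 32283511 to 32284465, plus strand) stood at 7.96, 4.81 and 8.66 CPM across wild-type replicates and at 10.8, 7.23 and 3.59 CPM across mutant replicates. Of all 6, mutant replicate 1 was the highest and mutant replicate 3 the lowest. Hba-a2 (ENSMUSG00000069917.7, chromosome 11 from 32296489 to 32297298, plus strand) gave 3.38, 1.99 and 4.39 CPM for wild type and 5.51, 3.32 and 1.23 CPM for the mutant, and its extremes were the same libraries. The alpha pair summed to 10.4 ± 3.23 CPM for wild type and 10.6 ± 5.77 CPM for the mutant, a fold of 1.02 with an interval from 0.626 to 1.67. The log2 difference of the sum was 0.033 (SE 0.36), and it lay on the other side of 0 with library size alone (-0.013), without mutant replicate 1 (-0.43), without wild-type replicate 2 (-0.20) with the replicate number as block (-0.057) and with both mutant replicate 1 and wild-type replicate 3 left out (-0.24). No direction is therefore given for the alpha pair, and a difference of the size seen for the beta sum lies outside this interval.

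Among the 5 of the 8 genes with enough counts to be tested (Hbb-bt, Hbb-bs, Hba-a1, Hba-a2 and Bcl11a), Hbb-bt and Hbb-bs passed an adjusted p of 0.05 in edgeR's quasi-likelihood test over all 20646 tested genes. That threshold was passed by 0.266% of all tested genes, 0.189% higher and 0.0775% lower in the mutant. The genes were chosen with this comparison known, so nothing is read from the count of 2. It was 1, Hbb-bt alone, with limma-voom and without wild-type replicate 1, 2 or 3, without mutant replicate 1 or 2, or with mutant replicate 1 and wild-type replicate 3 both left out.

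The balance within each library does not depend on scaling between libraries. For the beta pair it restates the unequal folds of Hbb-bt and Hbb-bs, genes selected on this comparison, and is a description only. Hbb-bt made up 36.3%, 38.2% and 39.6% of adult beta-globin in the wild-type libraries and 52.3%, 53.0% and 53.2% in the mutant libraries, each in replicate order. The shares did not overlap between the genotypes. The exact 95% binomial intervals spanned 51.5% to 54.6% over the mutant libraries and 34.6% to 41.6% over the wild-type libraries. These intervals cover counting error only and rest on 1923 to 16645 counts per library. Means were 38.0% ± 1.70 and 52.8% ± 0.480 (SD, n = 3), a difference of 14.8 percentage points that ran from 13.9 to 15.6 when single libraries were left out. The split of the alpha pair overlapped, with Hba-a1 at 69.1% ± 2.41 of adult alpha counts in wild type and 69.8% ± 4.27 in the mutant.

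Levels of different genes were compared per kilobase of the principal transcript. Hbb-bs stood at 47.0 ± 7.40 and Hbb-bt at 25.8 ± 3.91 CPM per kilobase in wild type, so that Hbb-bs led in all 3 libraries. In the mutant they stood at 112 ± 34.3 and 112 ± 32.3 CPM per kilobase of full transcript. Hba-a1 followed at 10.2 ± 2.93 and 10.3 ± 5.18, and Hba-a2 at 5.87 ± 2.18 and 6.05 ± 3.87 CPM per kilobase in wild type and mutant, with Hba-a1 above Hba-a2 in all 6 libraries. If reads that fit both genes of a pair were left out, the lengths to divide by would be shorter and unequal, so the order within either pair is not settled by these values. Together the 7 globin genes took 0.00471% to 0.00649% of all counts in wild type and 0.0106% to 0.0196% in the mutant.

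The ratio of adult beta to adult alpha counts was 4.61, 5.79 and 3.93 for the wild-type libraries and 11.6, 14.6 and 21.3 for the mutant libraries, each in replicate order. The lowest mutant ratio lay above the highest wild-type ratio. With overlapping alpha levels, the ratio largely restates the difference of the beta pair, which was selected on this comparison, and is a description only. On the log2 scale the means were 2.24 ± 0.28 and 3.94 ± 0.44 (SD, n = 3), a difference of 1.70 that stayed between 1.47 and 1.90 when single libraries were left out. Mutant replicate 3 had the lowest beta and the lowest alpha level of the mutant libraries and the highest ratio.

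**Figure D2:**
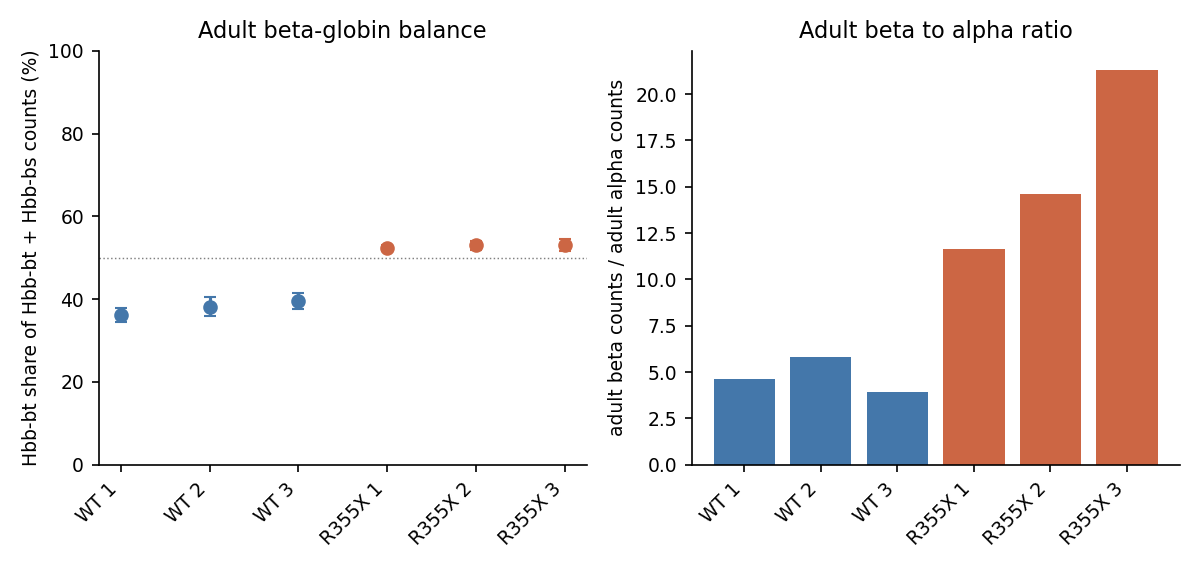
The left panel shows the percentage of adult beta-globin counts assigned to Hbb-bt in each library, with exact 95% binomial intervals and a dotted line at an even share, and the right panel the ratio of adult beta to adult alpha expected counts. Wild-type shares lie between 36.3% and 39.6% and mutant shares between 52.3% and 53.2%, and the ratios lie between 3.93 and 5.79 and between 11.6 and 21.3.

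The embryonic globins were at or near 0 in both genotypes and were not tested. Hbb-bh1 (ENSMUSG00000052217.6) had 0 counts in all 6 libraries, where 3 counts, the limit that a count of 0 allows, correspond to 0.0343 to 0.0668 CPM. Hbb-y (ENSMUSG00000052187.4) had 6 counts in mutant replicate 1 and 4 in mutant replicate 2 and 0 in the other 4 libraries. Its level of 0.0686 and 0.0767 CPM in those libraries is close to the limit of 0.0489 to 0.0616 CPM in wild type, so a difference was not detectable at this depth. Hba-x (ENSMUSG00000055609.8) had 10 counts in wild-type replicate 1, 2 in wild-type replicate 3 and 0 elsewhere. The 11 further globin-family genes in the table, among them Hbb-bh2, the theta globins Hbq1a and Hbq1b, myoglobin (Mb), neuroglobin (Ngb) and cytoglobin (Cygb), summed to 0.277 to 0.847 CPM, and only androglobin (Adgb) passed the count filter, averaging 0.261 ± 0.177 CPM for wild type and 0.405 ± 0.226 CPM for the mutant.

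Bcl11a (ENSMUSG00000000861.15, chromosome 11 from 24078056 to 24174123, plus strand) had more counts than any single globin gene in every library and did not separate the genotypes. It measured 298, 305 and 264 CPM in wild-type replicates 1, 2 and 3 and 275, 276 and 319 CPM in mutant replicates 1, 2 and 3. The lowest library was wild type and the highest was mutant, with the others between them. Means were 289 ± 22.2 and 290 ± 25.4 CPM (SD, n = 3), a fold of 1.00 with an approximate 95% interval from 0.902 to 1.12. Per kilobase Bcl11a stood at 48.2 ± 3.71 in wild type and at 48.4 ± 4.24 in the mutant. By that measure, over the full transcript, Hbb-bs stood at 47.0 and 112 and Hbb-bt at 25.8 and 112. The overlapping transcripts 4930538E20Rik and Gm12064, which can share reads with it in unstranded counts, measured under 2 CPM (1.88 ± 0.334 and 1.42 ± 0.145 CPM in wild type).

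No other regulator of globin switching passed in edgeR. Of 37 listed genes 36 were tested and 0 were called after adjustment over all genes, while 1 higher and 2 lower reached an unadjusted p of 0.05, a mark met by 10.6% of all tested genes (5.83% higher and 4.8% lower). DESeq2 called 1, Nfix, as lower and limma-voom called 0. The median log2 difference was -0.030, beside 0.0019 over all tested genes. Nfix, a nuclear factor I gene tied to fetal globin silencing in human cells, averaged 66.7 ± 2.49 CPM for wild type and 53.7 ± 4.35 CPM for the mutant (log2 -0.31, SE 0.073, edgeR adjusted p = 0.160). Its relative Nfia measured 38.9 ± 8.80 and 29.8 ± 3.82 CPM (log2 -0.38, SE 0.15). Myb, a progenitor factor whose reduction raises fetal globin in human cells, measured 653 ± 28.8 and 669 ± 7.07 CPM, and Chd4, the ATPase of the NuRD complex that Bcl11a recruits, 322 ± 7.72 and 336 ± 5.58 CPM. Ikzf1, which encodes the lymphoid factor Ikaros, measured 415 ± 8.19 and 465 ± 43.4 CPM (log2 0.16, SE 0.071, edgeR adjusted p = 0.452). The factor Zbtb7a, which represses embryonic-type globin beside Bcl11a and was picked outside the naming rule after its values were seen, measured 87.0 ± 5.37 and 87.6 ± 18.3 CPM.

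**Figure D3:**
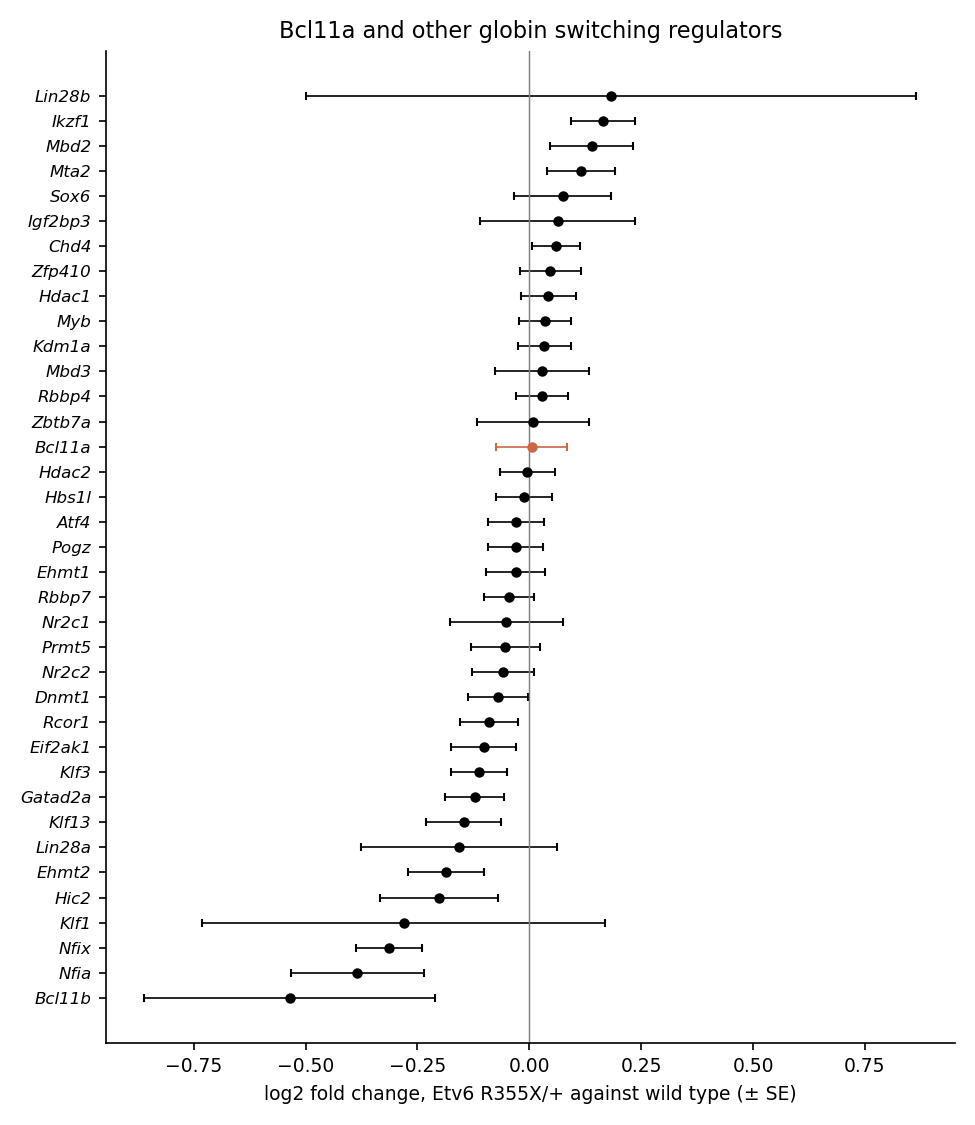
Log2 fold change with its standard error for Bcl11a (coloured) and the 36 tested genes of the switching-regulator list (black), ordered by value. Bcl11a lies at 0.0055, and the genes run from -0.54 for Bcl11b, a low-level gene here, to 0.18 for Lin28b, whose error is wide.

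Apart from Hbb-bt and Hbb-bs, no listed gene that marks maturing red cells passed in edgeR. The list of erythroid membrane proteins and enzymes had 28 genes, all tested, of which 0 were called, 1 higher and 1 lower reached an unadjusted p of 0.05, and DESeq2 called 1 (Tmod1, higher) and limma-voom 0. Values were below 0 in 23 of 28, with a median log2 difference of -0.22 that turned to 0.30 without wild-type replicate 3 and to 0.16 with mutant replicate 1 left out as well. The median was -0.40 and -0.48 without wild-type replicates 1 and 2, -0.37 and -0.34 without mutant replicates 1 and 2, and -0.019 without mutant replicate 3. With limma-voom it was -0.076, and with a block for replicate number -0.11. The summed level of the list ran from 849 to 1185 CPM over wild-type and from 766 to 974 CPM over mutant libraries. No gene of the list was at 0 in all libraries.

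Tmod1, which caps actin filaments in the red cell membrane skeleton, gave 1.55, 1.08 and 1.81 CPM for wild type and 3.93, 3.44 and 3.29 CPM for the mutant (log2 1.26, SE 0.23, edgeR adjusted p = 0.0617). Epb41, which encodes the skeletal protein 4.1, measured 108 ± 3.64 and 94.8 ± 3.35 CPM (log2 -0.19, SE 0.059, edgeR adjusted p = 0.287). The most abundant genes of the list were the carbonic anhydrase gene Car2, at 284 ± 36.3 and 263 ± 30.5 CPM, the nuclear export receptor Xpo7, at 106 ± 6.11 and 105 ± 2.50 CPM, and the peroxiredoxin Prdx2, at 103 ± 4.67 and 109 ± 14.2 CPM.

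Defining red cell genes picked outside the naming rule after their values were seen are Car1, Klf1 and Alas2. Car1, another carbonic anhydrase, gave 46.3, 52.8 and 146 CPM for wild type and 86.4, 92.8 and 38.6 CPM for the mutant, in replicate order. Klf1, the factor that drives adult beta-globin transcription, gave 3.78, 3.99 and 13.6 CPM and 7.39, 6.58 and 3.54 CPM. In both genes the highest library was wild-type replicate 3, and the genotypes overlapped. Across wild-type replicates 1, 2 and 3 the adult alpha sum was 11.3, 6.80 and 13.1 CPM. The adult beta sum was 52.2, 39.4 and 51.4 CPM. Alas2, the first enzyme of heme synthesis in red cells, stayed between 1.84 and 2.38 CPM in all 6 libraries.

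The heme synthesis and iron list had 19 genes, all tested, with 16 below 0 and a median log2 difference of -0.16, which was -0.024 without wild-type replicate 3 and -0.037 without that library and mutant replicate 1. edgeR called 0, 3 lower reached an unadjusted p of 0.05, and neither DESeq2 nor limma-voom called any. Among those 3 were the transporter Abcg2, at 33.6 ± 1.48 CPM (wild type) and 28.6 ± 2.44 CPM (mutant), and mitoferrin (Slc25a37), at 136 ± 1.93 and 120 ± 14.3 CPM. The transferrin receptor gene Tfrc measured 107 ± 24.8 and 89.9 ± 5.50 CPM.

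Of 18 erythroid transcription factor and receptor genes 0 passed in edgeR, 1 higher and 2 lower reached an unadjusted p of 0.05, and neither DESeq2 nor limma-voom called any. Their median was 0.012, with values on both sides of 0 when single libraries were left out (-0.064 to 0.046), and -0.026 with library size alone. The corepressor gene Cbfa2t3 measured 142 ± 11.8 and 119 ± 9.73 CPM, the factor Nfe2 76.2 ± 2.47 and 68.4 ± 2.76 CPM, and Lmo2, a bridging protein of erythroid complexes, 374 ± 40.5 and 383 ± 5.78 CPM.

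A short list of hemoglobin folding and clearance genes had 5 tested members, of which edgeR and limma-voom called 0 and 1 higher and 1 lower reached an unadjusted p of 0.05 (median 0.033, and -0.006 with library size alone). Hmox1, which degrades heme, is also on the macrophage list and was the 1 gene DESeq2 called, averaged 14.7 ± 2.46 CPM for wild type and 25.0 ± 6.88 CPM for the mutant (log2 0.76, SE 0.19, edgeR adjusted p = 0.189). Haptoglobin (Hp), which binds free hemoglobin, measured 56.3 ± 16.3 and 40.2 ± 5.34 CPM (log2 -0.48, SE 0.17).

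Most markers of macrophages and B-lineage cells lay above 0, though none passed in the main edgeR fit. The list of erythroblast island macrophages, the cells that surround and clear maturing red cells, had 17 of 19 tested genes above 0 (median log2 difference 0.53, and 0.34 without mutant replicate 1 and 0.26 without that library and wild-type replicate 3). The main edgeR fit called 0, 12 higher and 0 lower reached an unadjusted p of 0.05, and DESeq2 called 5 and limma-voom 0. With no filter beyond 1 count, where 527 genes were called in all, edgeR called 7 of the list. Without mutant replicate 3 the median was 0.69 and edgeR called 2. The summed level of the list was 166, 158 and 172 CPM for wild type and 257, 198 and 169 CPM for the mutant, in replicate order. The mutant libraries ranked by this sum as they did by their beta-globin sum. That order is not particular to macrophages. It also held for the B-lineage sum (1066, 773 and 656 CPM), the adult alpha sum (16.3, 10.6 and 4.81 CPM) and depth. The mature erythroid sum (956, 974 and 766 CPM) did not follow it. Mutant replicate 3, at 169 CPM, lay within the wild-type range of the macrophage sum. The order of 3 libraries is a description only, and its link to the beta-globin level was not tested. C1qa, a complement chain made by tissue macrophages, measured 2.55 ± 0.166 and 4.80 ± 1.35 CPM, and Cd68, a lysosomal protein of macrophages, 13.6 ± 1.48 and 19.4 ± 2.20 CPM. Vcam1, the adhesion receptor of the islands, measured 37.1 ± 5.65 and 35.2 ± 5.75 CPM, and no gene of the list was at 0 in all libraries.

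B-lineage genes were above 0 in 18 of 20 (median 0.83, and 0.48 without mutant replicate 1), with 0 called in edgeR, 15 higher and 0 lower at an unadjusted p under 0.05, 2 called by DESeq2 and 0 by limma-voom. Their summed level was 585 to 672 CPM over wild-type and 656 to 1066 CPM over mutant libraries, again highest in mutant replicate 1, and none was at 0 in all libraries. Rag1, a subunit of the antigen receptor recombinase, measured 14.9 ± 0.720 and 31.1 ± 10.7 CPM, and Ebf1, an early B cell factor, 23.4 ± 3.20 and 46.0 ± 18.8 CPM. The part of macrophages, B-lineage cells or maturing red cells in the beta-globin difference was not tested.

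**Figure D4:**
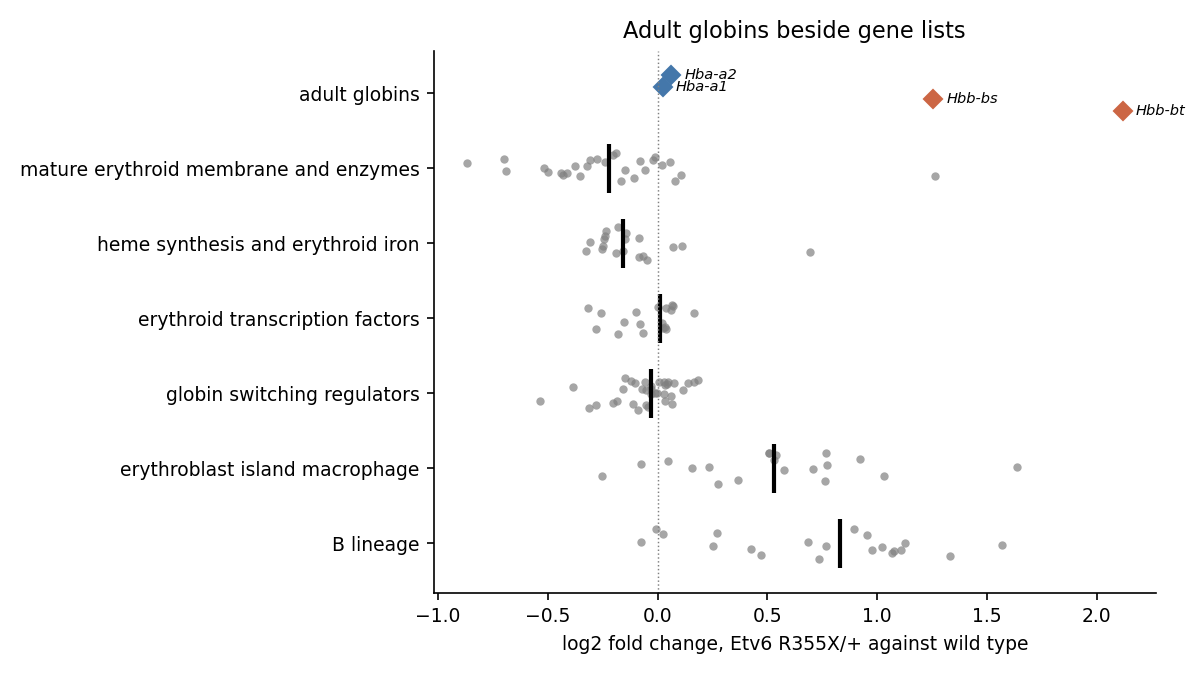
Log2 fold change of the adult globin genes (diamonds) above the tested genes of 6 lists (points, each with its median as a bar). Hbb-bt and Hbb-bs, at 2.12 and 1.25, lie beyond most genes of the erythroid, heme and switching lists, whose medians are -0.22, -0.16, 0.012 and -0.030, while the macrophage and B-lineage medians are 0.53 and 0.83.

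Because Bcl11a is also a gene of lymphoid and plasmacytoid dendritic precursors, it was set beside those lists. Of 20 lymphoid-priming genes 17 were above 0 (median 0.21, and 0.080 without mutant replicate 1), with 0 called in edgeR, 9 higher and 1 lower at an unadjusted p under 0.05, 3 called by DESeq2 and 0 by limma-voom. Dntt, the template-free polymerase of early lymphoid cells, measured 344 ± 41.1 and 407 ± 79.4 CPM. Of 15 plasmacytoid dendritic genes the main edgeR fit called 0, with 2 higher and 4 lower at an unadjusted p under 0.05. The median was 0.021 (-0.018 with library size alone). DESeq2 called 3 lower and limma-voom 0, and edgeR with no filter beyond 1 count called 3 lower. Tcf4, a defining factor of that lineage, averaged 237 ± 21.7 CPM for wild type and 238 ± 9.26 CPM for the mutant, and its genotypes overlapped as those of Bcl11a did.

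No neighbour of the globin clusters passed in edgeR. Within 500 kb of the beta-globin cluster 17 genes other than the members were tested, most of the remaining 69 being olfactory receptor genes without enough counts. edgeR called 0 of these 17, 2 had an unadjusted p under 0.05, and the median log2 difference was -0.025 with a range from -1.60 to 0.24. Trim6, a tripartite motif gene with one of those p-values, measured 13.7 ± 2.14 and 10.0 ± 1.71 CPM, and the other was that of Ubqln5, the lowest value. Farther out on the same chromosome, Stim1, a calcium sensor, measured 58.1 ± 3.58 and 60.6 ± 4.73 CPM and Rrm1, a ribonucleotide reductase subunit, 177 ± 19.0 and 183 ± 10.8 CPM. Around the alpha-globin cluster 12 genes were tested, 0 were called, and the median was -0.15 with a range from -0.51 to 0.89. The 2 with an unadjusted p under 0.05 were both higher in the mutant, Nsg2 at 1.79 ± 0.407 and 3.33 ± 0.427 CPM and the kinase gene Stk10 at 68.5 ± 2.93 and 76.5 ± 4.68 CPM. All 3 neighbours without overlap between genotypes were higher. That order was seen in 8.44% of all tested genes and the opposite order in 7.86%, so nothing is read from this count. Around Bcl11a 7 were tested, 0 were called and 0 had an unadjusted p under 0.05, with a median of -0.023. Nprl3, whose introns hold the alpha-globin enhancers, measured 15.3 ± 2.64 and 12.2 ± 2.47 CPM with overlap, and like Nsg2 and Ubqln5 was named outside the naming rule after its values were seen.

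**Figure D5:**
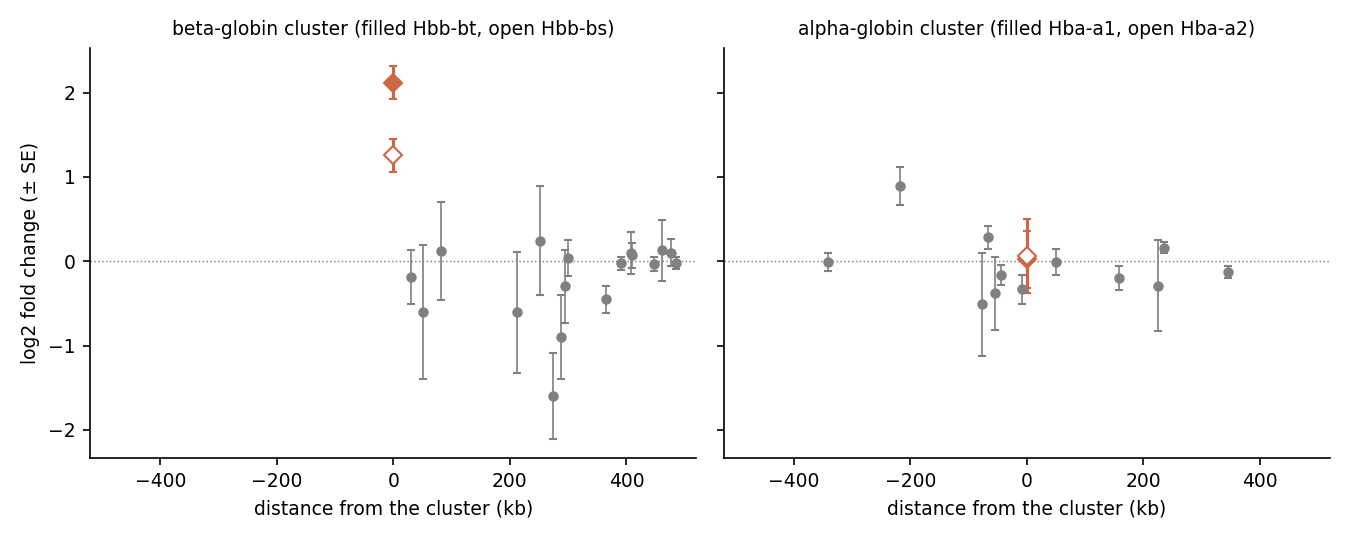
Log2 fold change with its standard error against distance in kilobases from the beta-globin cluster (left) and the alpha-globin cluster (right), for every tested gene within 500 kb (grey) and the adult globins at 0 kb (diamonds). On the left Hbb-bt and Hbb-bs lie at 2.12 and 1.25, above all 17 neighbours, whose highest value is 0.24.

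Genes with the most similar profile over the 6 libraries were ranked by the root mean square distance of centred log2(CPM + 0.5) values among 12008 genes with a mean of at least 1 CPM for the globin sums and 12011 for Bcl11a. This is a description only: the profile includes the difference between genotypes on which the beta-globins were selected, so genes high in the mutant rank near them. For the adult beta-globin sum they were Fcer1a, the alpha chain of the IgE receptor of mast cells and basophils (0.24), Hpgd, which breaks down prostaglandins (0.24), Gimap4, a lymphocyte GTPase (0.26), the adaptor gene Grap (0.27) and Bfsp2, a lens filament gene (0.27). Fcer1a, which averaged 0.499 ± 0.0776 CPM for wild type and 2.49 ± 0.380 CPM for the mutant, reached the minimum through the mutant libraries alone. Grap averaged 0.836 ± 0.470 CPM for wild type, also below the minimum, and 2.71 ± 1.05 CPM for the mutant. The distance between Hbb-bt and Hbb-bs was 0.43, that between Hba-a1 and Hba-a2 0.12, and that between the beta and alpha sums 0.88. For the adult alpha-globin sum the closest were Nxpe4, the matrix metalloproteinase Mmp14, Cited4, Ly86 and Slamf7, at 0.20 to 0.26. For Bcl11a they were Acap1, Rnf44, the ubiquitin ligase Smurf1, the RNA sensor Ddx58 and Ttc3, at 0.021 to 0.024, all with small differences between libraries.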

How the data were processed

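Expected counts per gene were deposited by the authors, unscaled. The submitters' processing notes name Trim Galore 0.60, STAR 2.7, RSEM 1.31 and build mm10, and no annotation release or filter. The table is marked as unstranded, and cDNA was made by single primer isothermal amplification, per the labels' protocols. The 92 spike-in rows, 0 throughout, were left out.

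Expected counts were rounded, filtered with filterByExpr and scaled by TMM. The main test was the two-sided quasi-likelihood F test of edgeR 4.0.16 in R 4.3.3 on genotype alone, with Benjamini-Hochberg adjustment over 20646 genes. Standard errors were derived from the F statistic, and intervals are normal approximations. Each adult pair was also summed to 1 row before the fit. Positions, transcripts and lengths are from GENCODE M21 (GRCm38), in which 55394 of 55573 identifiers were found, and promoters from RefSeq, found for 7 of the 8 genes.

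The genes and lists were chosen with earlier results of these data known. Named are all 8 genes, Etv6, Kit and Ly6a, and per list the called genes, the 2 smallest p and the 3 highest levels, given in part, and the 5 closest profiles. Replicates of a genotype differed beyond sampling noise (chi-square per gene 11.2 to 46.5). DESeq2 1.42.0, limma-voom 3.58.1, other scalings, filters and rounding, a replicate block, removal of mitochondrial and ribosomal RNA genes and left-out libraries were alternatives.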

Additional observations from a re-analysis of the deposited data

How the results depend on the processing

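The log2 difference of the adult beta-globin sum stayed between 1.43 and 1.85, that of Hbb-bt between 1.91 and 2.32 and that of Hbb-bs between 1.03 and 1.47 under every alternative run. Bcl11a stayed between -0.069 and 0.047 and the adult alpha sum between -0.43 and 0.37, each on both sides of 0. The count of 55 called genes was 325 with DESeq2, 527 with no filter beyond 1 count, 32 with the replicate number as a block, and 16 to 67 when single libraries were left out. The count of globin and Bcl11a genes called was 2, and 1 with limma-voom, 1 with mutant replicate 1 and wild-type replicate 3 both left out, and 1 to 2 when single libraries were left out. Over the 5 erythroid, heme, folding and switching lists (102 tested genes) the count of 0 in edgeR was 3 with DESeq2, 5 with no filter beyond 1 count and 0 to 1 when single libraries were left out, with 3 higher and 9 lower at an unadjusted p under 0.05. The causes were not tested.

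Same-numbered libraries of the genotypes did not deviate together (correlations of deviations -0.043, -0.11 and -0.20), and no library correlated best with its own number. With the replicate block the beta sum differed by 1.61, the alpha sum by -0.057 and Bcl11a by 0.0047 on the log2 scale. Differences within numbers averaged 14.8 percentage points for the Hbb-bt share and 1.70 for the log2 beta to alpha ratio. These averages equal the differences of group means by arithmetic, so they are no further check. Depth limits the embryonic globins, which had 0 counts in most libraries and at most 10 in any.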
